A study of Mus musculus with 12 samples.

Results

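The dexamethasone by genotype interaction was measured by bulk ATAC-seq, in which a transposase cuts open chromatin and the reads over a peak give its accessibility. For every peak it is the dexamethasone (Dex) effect in wild-type (WT) cells minus the Dex effect in cells whose label is a conditional knockout (cKO) for the glucocorticoid receptor. All 222105 peaks of the joint peak set and all 12 libraries of the series entered it, and 202587 peaks passed the filter on low counts and were tested. The remaining 19518 peaks were too weak to test. A positive value means that Dex raised a peak more, or lowered it less, in WT than in cKO cells.

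The cells were mouse T cells of C57/B6 background, labelled WT or GR cKO. Naive CD4+ T cells were differentiated in culture into homeostatic Th17 cells, a state of IL-17-producing helper T cells with low inflammatory potential, and then kept with Dex or without it (control) for 2 days. The 4 groups were WT control, WT Dex, cKO control and cKO Dex, with 3 libraries in each, every one made from 6000 sorted cells. The sources used here name neither the Cre driver, the deleted exons nor the extent of deletion in the cKO, and they do not say that the 3 libraries of a group came from separate mice or cultures, so p-values measure the spread between these libraries only.

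The glucocorticoid receptor, encoded by Nr3c1, is held in the cytoplasm by chaperones until a steroid binds it. It then enters the nucleus, binds DNA mostly at enhancers away from promoters, and recruits chromatin remodellers that can open or close those sites. In T cells glucocorticoids are known for promoting apoptosis, for raising homing and survival receptors, and for restraining inflammatory genes driven by NF-kB and AP-1. Dex is a synthetic agonist of this receptor, so the interaction asks how far the chromatin response to Dex differed between WT cells and cells labelled as its knockout.

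Total counts per library ran from 12988437 to 25081591. The share of counts held by the strongest 10% of tested peaks ran from 57.9 to 63.5%, highest in WT Dex replicates 1 and 2 and lowest in cKO control replicates 1 and 3 and cKO Dex replicate 3; the number of calls with this share as a covariate is given with the other settings. The third cKO Dex library stood apart from its own group, at 3.05 and 3.59 chi-square units per degree of freedom from the other 2 cKO Dex libraries, compared with 2.0 to 2.48 for the other replicate pairs. Markers of T cell identity had a median strongest peak of 50.5 CPM (the count divided by the scaled library size and expressed per 1000000 counts) and Th17 core genes 42.6 CPM, against 9.86 for erythroid and stromal, 6.3 for CD8 T and NK cell, 5.51 for myeloid and 3.95 CPM for B cell markers, with none of these genes at 0. Single genes spread widely, from 28.8 to 174 CPM for T cell identity and from 3.97 to 91 CPM for Th17 core. The ranges were 1.31 to 49.9 CPM for erythroid and stromal and 1.15 to 19 for CD8 T and NK cell markers. They were 0.61 to 47.3 for myeloid and 1.4 to 41.4 CPM for B cell markers. The summed B cell peaks were at 444 to 466 CPM (control) and 416 to 435 CPM (Dex) in WT, and at 440 to 474 (control) and 426 to 477 CPM (Dex) in cKO cells; for the other 3 lists the Dex and control ranges overlapped within each genotype, and their part in the results was not tested. Nr3c1 was no check of the labels: 0 of its 24 tested peaks was called between the genotypes in control (0.0104% of tested peaks were) or Dex cells (0.17%), which is the background. An unadjusted p under 0.05 was reached at 4 of the 24 in control cells (7.69% of tested peaks). The cKO minus WT differences had a median of 0.06 on the log2 scale in control and 0.04 in Dex cells. At the strongest peak, chr18:39488851-39492392, they were -0.27 ± 0.10 and -0.24 ± 0.10 (log2 ± SE), neither called. Summed accessibility over the 24 was 102 to 118 CPM (control) and 107 to 127 CPM (Dex) in WT, and 96.3 to 111 (control) and 103 to 120 CPM (Dex) in cKO cells. The labels do not say whether any of these peaks lies in the part that was deleted.

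Among the 202587 tested peaks, 56 had a Dex effect that differed between the genotypes (0.0276% of tested peaks), at a Benjamini-Hochberg adjusted p under 0.05 in the quasi-likelihood F-test of edgeR, which is what "called" means here. The value was above 0 at 55 of them (0.0271%), written below as larger in WT, and below 0 at 1 (0.000494%), written as larger in cKO. These words order the signed effects and not their sizes: at Mbtps1 and Myh10 an estimate below 0 in cKO was the bigger of the 2 in size. The Dex effect in WT was above 0 at all 55 and was itself called at 53; the Dex effect in cKO was called at 3. By position the 56 peaks fell to 46 genes, with 9 peaks farther than 50 kb from any gene. Among the 46, picked out here by known function, were the chemokine receptor genes Cxcr4 and Cx3cr1, the receptor target genes Klf9 and Sgk1, the Th17 genes Hif1a, Nfkbiz and Tmem176b, and the cell death genes Bcl2l11 and Cradd. In bulk libraries, a change in accessibility per cell and a change in the share of cells that are open cannot be told apart. The difference between the Dex effects at the 55 peaks ran from 0.64 to 3.49 on the log2 scale with a median of 1.20, and was at least 2-fold at 38 of them.

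Over all tested peaks the 2 directions were nearly even. At an unadjusted p under 0.05 there were 11454 peaks (5.65%), 5905 larger in WT (2.91%) and 5549 larger in cKO (2.74%). The median difference over all tested peaks was 0.00 on the log2 scale. With a looser threshold, an adjusted p under 0.1, 77 peaks passed (0.038%) and 75 were larger in WT; under 0.01, 32 passed and all 32 were larger in WT. Tested against a difference beyond 1.5-fold (glmTreat in edgeR), 6 peaks passed (0.00296%).

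No genome sequence was at hand for the called peaks themselves, so the sequence shown is that of the promoters of the 2 genes, Cxcr4 and Klf9, whose upstream peaks carry the pattern and whose own promoters did not pass the interaction test. The 250 bases upstream of each transcript start are given 5′ to 3′ on the gene's strand, from RefSeq on GRCm38.p6, with capitals marking the receptor's core hexamer AGAACA, whose complement on the other strand is written TGTTCT. The Cxcr4 window is chr1:128592300-128592549 on the minus strand and holds 1 such hexamer, and the Klf9 window is chr19:23140976-23141225 on the plus strand and holds 0.
Cxcr4: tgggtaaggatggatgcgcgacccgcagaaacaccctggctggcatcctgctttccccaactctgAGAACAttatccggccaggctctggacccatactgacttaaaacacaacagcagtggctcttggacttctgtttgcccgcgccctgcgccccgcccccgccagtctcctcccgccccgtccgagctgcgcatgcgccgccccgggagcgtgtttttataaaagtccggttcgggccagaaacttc
Klf9: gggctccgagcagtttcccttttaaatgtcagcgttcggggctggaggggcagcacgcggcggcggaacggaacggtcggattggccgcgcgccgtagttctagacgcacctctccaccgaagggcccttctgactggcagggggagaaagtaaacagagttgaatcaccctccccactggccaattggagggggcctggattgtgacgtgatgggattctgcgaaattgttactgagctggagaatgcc
Of all 32851 promoter windows of this length, 16.1% hold the hexamer on either strand, and 3 hold the palindrome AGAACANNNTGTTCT, in which it stands on both strands. Among the 54 windows of the 38 called genes found in the promoter table, 8 windows of 6 genes hold the hexamer. These matches are letters in a window and say nothing of binding.

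The Cxcr4 peak lay 22813 bases upstream of the Cxcr4 transcript start, between genes, at chr1:128614316-128615908 (mm10). Cxcr4 encodes the receptor for the chemokine CXCL12 and guides lymphocytes to bone marrow and lymphoid tissue. Its accessibility was 14.3, 14.9 and 16.5 CPM without and 60.8, 57.7 and 58.9 CPM with Dex in WT cells, and 12.8, 13.4 and 15.9 without and 22.7, 27.5 and 22 CPM with Dex in cKO cells. The WT Dex libraries were the highest, the cKO Dex libraries stood between them and both controls, and neither Dex group overlapped its control. Dex raised the peak 3.86-fold in WT and 1.72-fold in cKO, both called, with a difference of 1.17 ± 0.16 (log2 ± SE, edgeR adjusted p = 3.73e-05). The Cxcr4 promoter peak was at 43.4 ± 4.76 CPM in untreated WT, 54.4 ± 4.57 in Dex-treated WT, 41.6 ± 3.43 in untreated cKO and 42.5 ± 2.19 CPM in Dex-treated cKO libraries (mean ± SD, n = 3), and its interaction was 0.30 ± 0.15 (edgeR adjusted p = 0.875).

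Klf9, a zinc finger transcription factor gene and a textbook target of the receptor, had a called peak 6008 bases upstream of its start at chr19:23133843-23136594. Its level was 33.6, 32.8 and 31.8 (control) and 84.5, 78.9 and 65.6 CPM (Dex) for WT, and 31.1, 28.9 and 29.6 (control) and 39.3, 36.4 and 31.8 CPM (Dex) for cKO. All 3 WT Dex libraries were above the other 9, while the cKO Dex libraries exceeded the cKO controls by a small margin. The difference was 0.96 ± 0.15 (log2 ± SE, edgeR adjusted p = 0.000444), from a 2.33-fold rise in WT and a ratio of 1.2 in cKO that was not called. A called peak farther out, at chr19:23056894-23057202, lay 84178 bases upstream of the Klf9 start with the gene span of Trpm3, a cation channel, as its nearest, 61638 bases away. That peak was nearly closed in controls, at 0.61, 1.23 and 1.4 CPM in WT and 1.08, 1.62 and 1.35 in cKO, and with Dex it stood at 11.7, 9.6 and 8.73 CPM in WT and 1.99, 2.63 and 2.59 CPM in cKO. Each Dex group was above its own control without overlap, and the difference between the Dex effects was 2.31 ± 0.36 (edgeR adjusted p = 0.000458). The Klf9 promoter peak had an interaction of 0.18 ± 0.14 (edgeR adjusted p = 0.949).

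**Figure D1:**
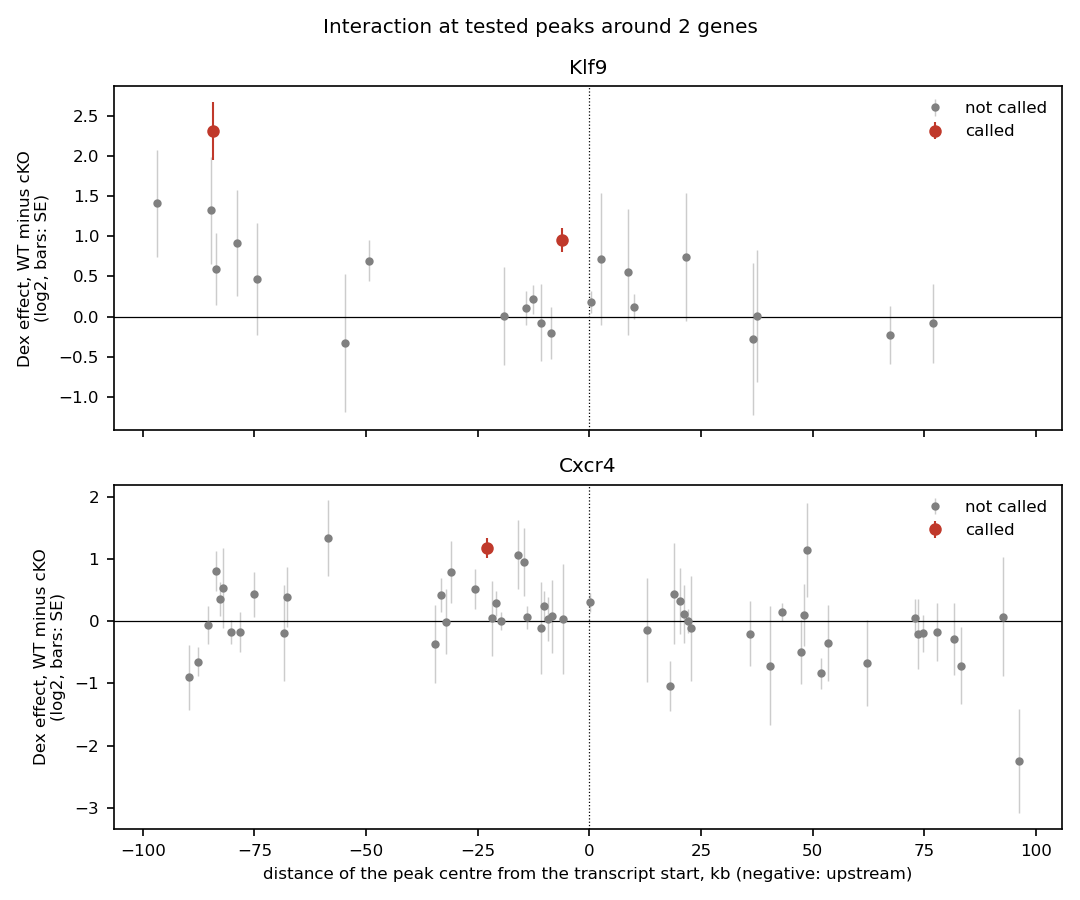
Interaction (Dex effect in WT minus cKO, log2, y axis) at tested peaks against the distance of the peak centre from the transcript start in kb (x axis), for Klf9 (top) and Cxcr4 (bottom); bars are SE and red points are called. At Klf9, 2 of 23 peaks were called and 17 were above 0; at Cxcr4, 1 of 54 was called and 30 were above 0. Over all tested peaks 0.0276% were called and 50.4% were above 0.

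Around Klf9, 23 peaks within 100 kb of the start were tested, 2 were called and 17 had a value above 0. Around Cxcr4, 54 were tested, 1 was called and 30 were above 0. Over all tested peaks 0.0276% were called and 50.4% had a value above 0. Both genes were picked for their called peaks, so these counts are a description. The plot of the interaction against distance shows that the called peaks stood among neighbours with estimates on both sides of 0.

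The smallest adjusted p belonged to a peak at chr2:155051715-155053366, 1528 bases outside the span of nonagouti, which encodes the agouti signalling peptide, an antagonist of melanocortin receptors known for coat colour. It read 3.81, 5.27 and 5.48 CPM without and 49, 44.1 and 42.2 CPM with Dex in WT cells, and 4.02, 6.52 and 6.07 without and 8.91, 10.2 and 11.6 CPM with Dex in cKO cells. Both Dex groups were above their controls without overlap, and the WT Dex libraries were far above the cKO Dex libraries. The rise was 9.09-fold in WT and 1.83-fold in cKO, called in each, and the difference 2.31 ± 0.21 (edgeR adjusted p = 2.12e-10).

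A peak at chr6:31345099-31346034, with no gene within 50 kb and Mkln1 as the nearest start 53262 bases away, showed the same order of groups. Its level was 3.97, 4.14 and 3.51 CPM in untreated WT, 33.3, 28.2 and 25.3 in Dex-treated WT, 4.32, 3.03 and 4.13 in untreated cKO and 7.73, 9.13 and 7.45 CPM in Dex-treated cKO libraries. The cKO Dex libraries were all above the cKO controls and all below the WT Dex libraries, the Dex effect was called in both genotypes, and the difference was 1.81 ± 0.23 (edgeR adjusted p = 6.63e-06). Cradd, an adaptor that links death domain proteins to caspase-2, had a called peak 29948 bases outside its span at chr10:95144382-95145200, at 1.68, 2.07 and 2.14 (control) and 15.7, 13.2 and 13.2 CPM (Dex) for WT, and 2.28, 3.81 and 2.32 (control) and 4.76, 5.43 and 5.23 CPM (Dex) for cKO. The WT Dex libraries did not overlap any other, the cKO Dex libraries stood above both controls, and the difference was 1.95 ± 0.28 (edgeR adjusted p = 6.82e-05).

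At most of the 55 peaks the Dex effect in cKO was above 0 and small, and it was called at 3 of them, the peaks at Cxcr4 and nonagouti and the peak near Mkln1 (among tested peaks 0.00296% passed for Dex in cKO, and 0.534% for Dex in WT). All 3 cKO Dex libraries were above all 3 cKO controls at 27 of the 55 (5.28% of tested peaks), below them at 4 (5.5%) and overlapped them at 24. The log2 Dex effect in cKO was above 0 at 44 and below 0 at 11, with a median of 0.26 and a range of -1.74 to 1.09, beside a median of 1.36 and a range of 0.85 to 3.57 in WT; both effects share their libraries with the interaction. In CPM, the Dex minus control difference in cKO had a median of 12.8% of that in WT. At 51 of the 55 peaks all 3 WT Dex libraries were above the other 9 (1.73% of tested peaks); the exceptions were the peaks at Kbtbd11, Sgk1, Mbtps1 and Myh10.

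**Figure D2:**
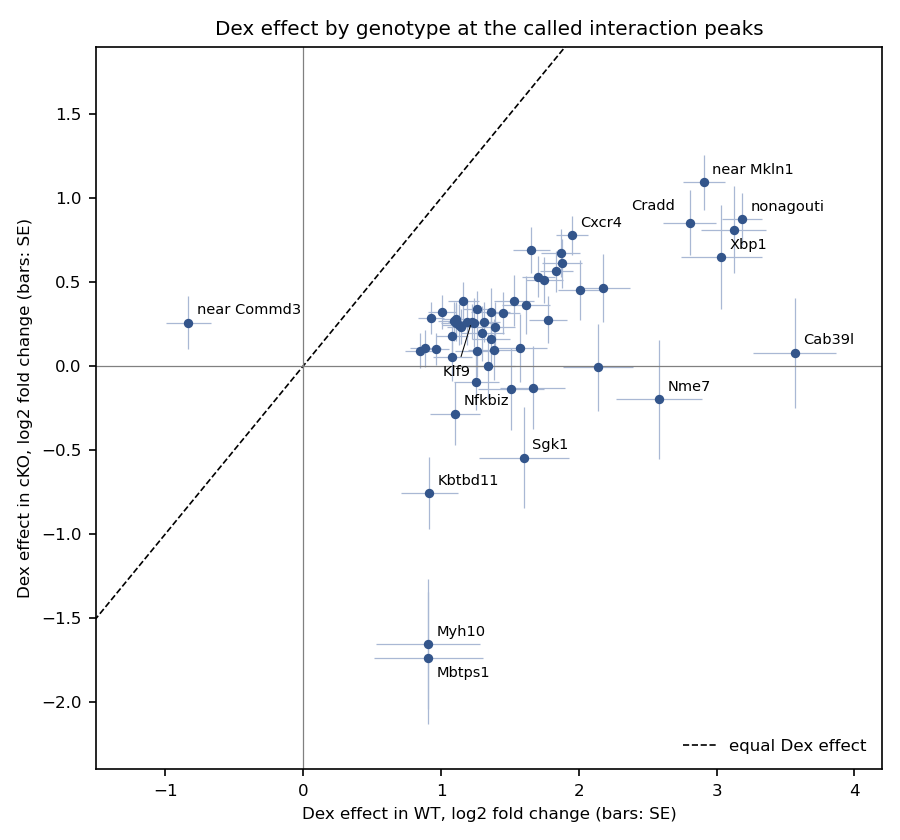
Dex effect in WT (x axis) against Dex effect in cKO (y axis), both log2 fold changes with SE bars, at the 56 called peaks; the dashed line marks an equal effect. The 55 peaks below the line have WT effects of 0.85 to 3.57 and cKO effects of -1.74 to 1.09, and the 1 peak above it, near Commd3, falls in WT.

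**Figure D3:**
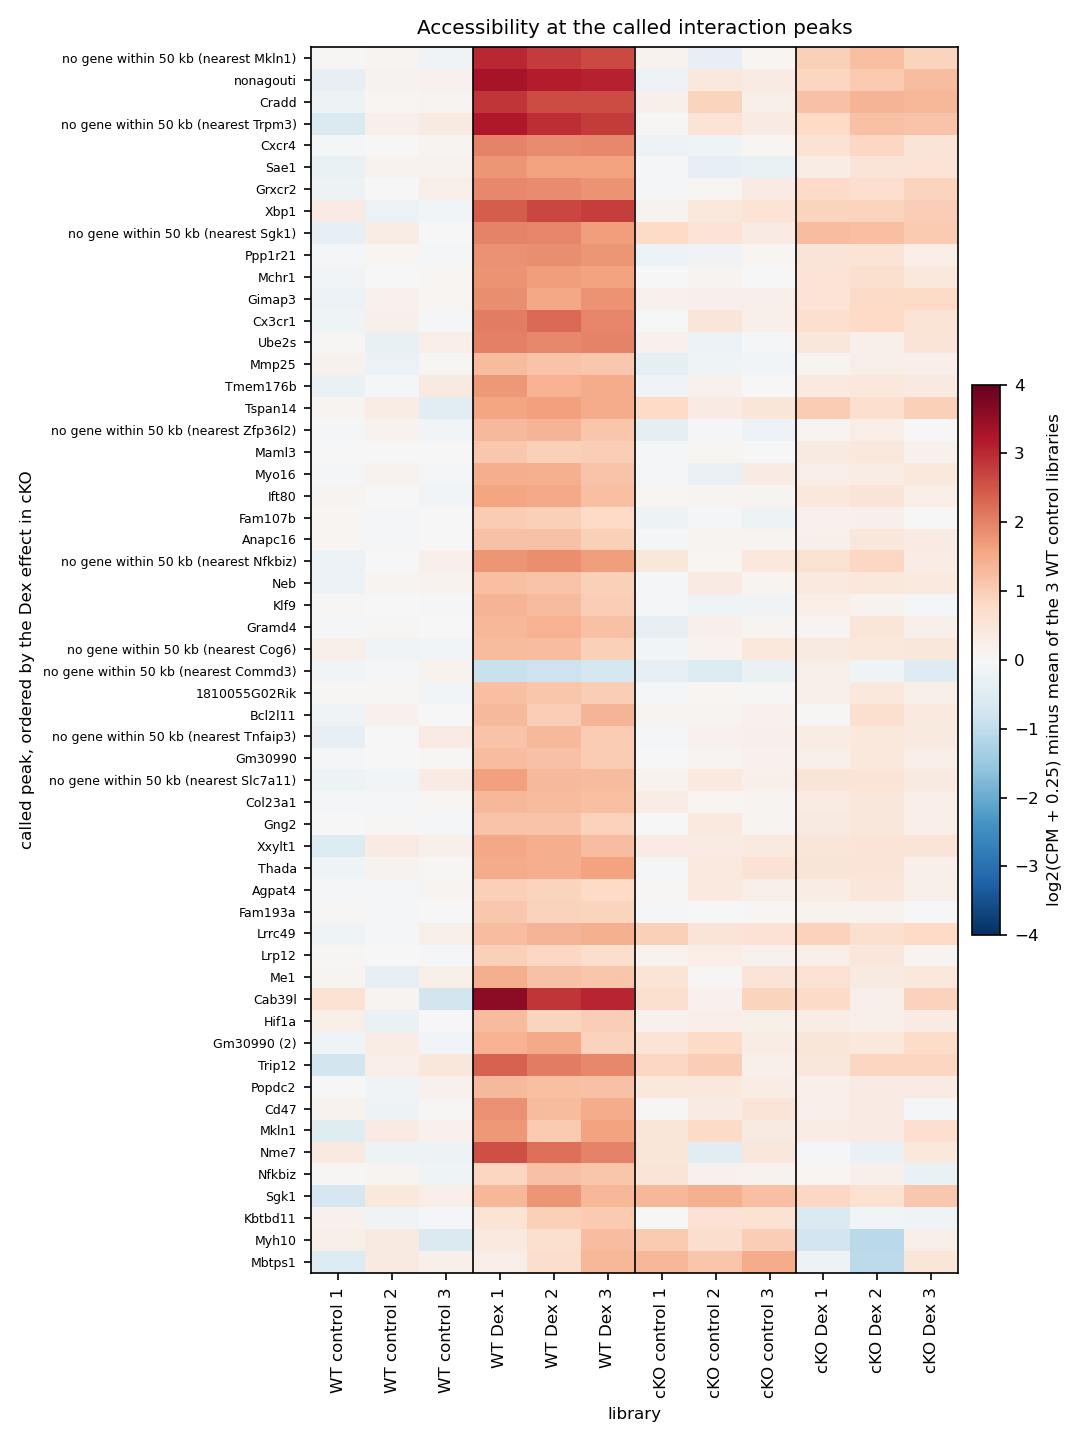
Accessibility of the 56 called peaks (rows, ordered by the Dex effect in cKO) in the 12 libraries (columns), as log2(CPM + 0.25) minus the mean of the 3 WT control libraries. The WT Dex columns are the highest at nearly every row; the cKO Dex columns are above the cKO controls in the upper rows and below them at the lowest 4.

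The median difference was larger where the WT control level was low, with Dex over control ratios in cKO on both sides of 1; the WT control libraries are part of the difference, so this is a description. The 11 peaks under 2 CPM in WT control had a median difference of 2.31 with a median Dex over control ratio of 4.41 in WT and 0.915 in cKO. The 12 peaks from 2 to 5 CPM had a median difference of 1.42, with ratios of 2.79 and 1.11, and the 16 from 5 to 15 CPM a median of 1.16, with 2.81 and 1.25. The 16 peaks at 15 CPM or more had a median of 0.86, with 2.16 in WT and 1.2 in cKO. Weak peaks need a larger difference to pass: the median SE of the interaction was 0.70 below a mean of 2 CPM, 0.34 from 2 to 5, 0.23 from 5 to 15, 0.16 from 15 to 50 and 0.14 above 50 CPM. Of 126778 tested peaks below 2 CPM, 3 were called, against 9 of 33819, 22 of 24615, 19 of 14989 and 3 of 2386 in the levels above. A 1.5-fold difference is smaller than the median SE at the 126778 weakest peaks, and was not detectable there at this depth.

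Cab39l had the largest difference among the peaks called. This gene encodes a scaffold of the kinase LKB1, and the called peak lay within it at chr14:59506209-59506541. It read 1.22, 0.788 and 0.33 CPM without and 11.2, 6.75 and 7.77 CPM with Dex in WT cells, and 1.26, 0.835 and 1.55 without and 1.38, 0.862 and 1.58 CPM with Dex in cKO cells. The cKO Dex and cKO control libraries overlapped throughout, and only the WT Dex libraries were above 2 CPM. Dex gave 11.8-fold in WT and 1.06-fold in cKO, a difference of 3.49 ± 0.46 (edgeR adjusted p = 1.58e-05).

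Nme7, a nucleoside diphosphate kinase family member of the gamma-tubulin ring complex, showed the same form at a peak within it, chr1:164405325-164405802. Its levels were 1.22, 0.739 and 0.742 CPM in untreated WT, 6.49, 4.97 and 4.25 in Dex-treated WT, 1.32, 0.574 and 1.29 in untreated cKO and 0.813, 0.689 and 1.27 CPM in Dex-treated cKO libraries, so that 9 libraries lay at or below 1.32 CPM and the WT Dex libraries above 4. The difference was 2.78 ± 0.48 (edgeR adjusted p = 0.00199). Xbp1, the transcription factor of the unfolded protein response, had a peak 17767 bases upstream of its start at 0.915, 0.542 and 0.619 (control) and 4.73, 5.69 and 6.12 CPM (Dex) for WT, and 0.78, 0.992 and 1.1 (control) and 1.46, 1.46 and 1.58 CPM (Dex) for cKO. Here the cKO Dex libraries were above the cKO controls without overlap, with a 1.57-fold change beside 8.2-fold in WT. The difference of 2.39 ± 0.44 (edgeR adjusted p = 0.00752) lost its call without WT control replicate 2, WT control replicate 3 or cKO control replicate 3, with estimates of 2.25 to 2.58 over the 12 leave-outs.

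Cx3cr1 encodes the fractalkine receptor of cytotoxic and effector lymphocytes and of myeloid cells. The called peak within it, chr9:120055880-120056693, stood at 2.14, 2.81 and 2.35 CPM without and 10.8, 12.6 and 9.98 CPM with Dex in WT cells, and 2.4, 3.44 and 2.84 without and 3.99, 4.39 and 3.64 CPM with Dex in cKO cells. The cKO Dex libraries were above their controls, by far less than in WT, and the difference was 1.71 ± 0.28 (edgeR adjusted p = 0.000725). Gimap3, a GTPase of the family that supports lymphocyte survival, had a called peak 14181 bases upstream at 6.33, 8.48 and 8.04 CPM in untreated WT, 28.2, 22.6 and 27 in Dex-treated WT, 8.46, 8.77 and 8.97 in untreated cKO and 11.1, 13.1 and 13.2 CPM in Dex-treated cKO libraries. No WT Dex library overlapped any other, and the difference was 1.24 ± 0.19 (edgeR adjusted p = 0.000454).

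Other peaks with a small adjusted p kept the same order of groups. A wide peak at chr17:84115758-84117588, whose nearest gene span, 67251 bases away, is that of Zfp36l2, an RNA-binding protein of mRNA decay, had the highest WT Dex level of the 20 peaks with the smallest p. It read 40.9, 45.8 and 39.1 (control) and 103, 107 and 91.5 CPM (Dex) for WT, and 32.3, 40.8 and 35.2 (control) and 44.9, 49.9 and 42.3 CPM (Dex) for cKO, with a difference of 0.92 ± 0.15 (edgeR adjusted p = 0.000471). The WT Dex libraries lay above 91 CPM and every other library at or below 49.9. Ube2s, the ubiquitin-conjugating enzyme that works with the anaphase-promoting complex, had a peak 4464 bases upstream of its start at 4.12, 3.2 and 4.82 CPM without and 17, 15.9 and 16.4 CPM with Dex in WT cells, and 4.56, 3.39 and 3.74 without and 5.57, 4.65 and 5.76 CPM with Dex in cKO cells, a difference of 1.56 ± 0.24 (edgeR adjusted p = 0.000454). A further 6 of the 20 lay in or near Ppp1r21 (1.27 on the log2 scale), the melanin-concentrating hormone receptor gene Mchr1 (1.17), the intraflagellar transport gene Ift80 (1.13), Fam193a (0.86), Gramd4 (1.05) and the xylosyltransferase gene Xxylt1 (1.20), all with WT Dex libraries above the other 9.

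**Figure D4:**
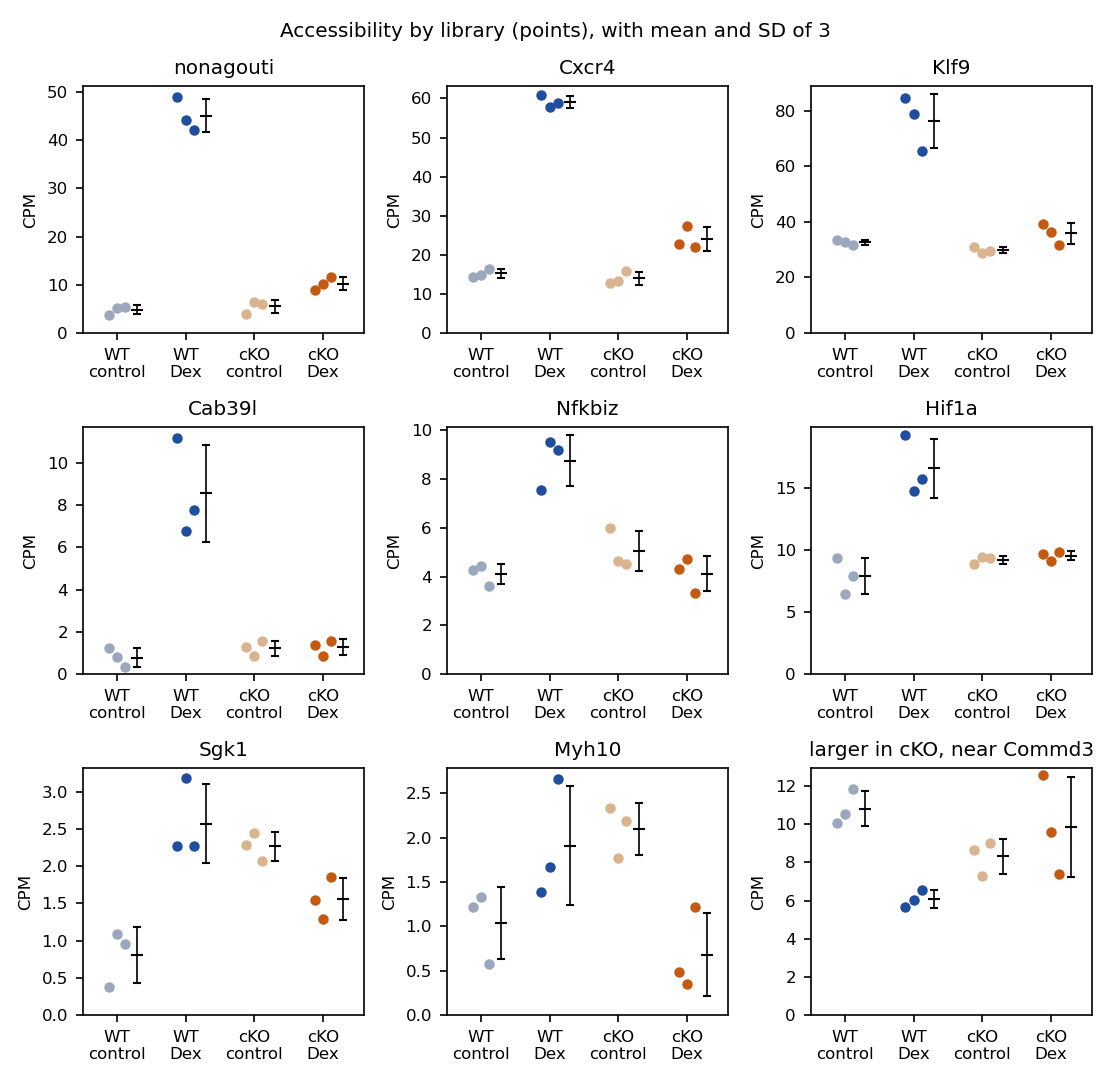
Accessibility in CPM (y axis) of 9 called peaks in each library (points) of the 4 groups (x axis), with the mean and SD of 3 to the right of the points. At nonagouti, Cxcr4 and Cab39l the WT Dex libraries stand far above the rest; at Sgk1 and Myh10 the cKO libraries are lower with Dex, and at the peak near Commd3 the WT libraries are.

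At 4 of the 55 peaks, all cKO Dex libraries lay below all cKO controls, though the Dex effect in cKO was called at none of the 4. Sgk1, a salt-sensing kinase known to favour the IL-23 receptor programme of Th17 cells, had its called peak within the gene at chr10:21998412-21999305. It read 0.381, 1.08 and 0.948 CPM in untreated WT, 2.27, 3.18 and 2.27 in Dex-treated WT, 2.28, 2.45 and 2.06 in untreated cKO and 1.55, 1.29 and 1.85 CPM in Dex-treated cKO libraries. The WT control libraries were the lowest of the 12, and the cKO control libraries overlapped the WT Dex libraries. The difference was 2.15 ± 0.44 (edgeR adjusted p = 0.0386), and the call held only without WT control replicate 2, WT Dex replicate 3 or cKO Dex replicate 3 and was lost without any 1 of the other 9 libraries (1.89 to 2.38 over the 12) or without the filter on low counts (adjusted p = 0.0522).

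Kbtbd11, a BTB and kelch domain protein, had a called peak at 3.81, 3.06 and 3.26 (control) and 4.98, 6.75 and 7.14 CPM (Dex) for WT, and 3.42, 5.11 and 5.29 (control) and 2.16, 3.1 and 2.96 CPM (Dex) for cKO. The cKO Dex libraries were below all cKO controls, and the lowest WT Dex library overlapped the cKO controls. The difference was 1.67 ± 0.30 (edgeR adjusted p = 0.0035) and was lost without cKO control replicate 3 or cKO Dex replicate 1. Mbtps1, the site-1 protease that activates SREBP and ATF6, and Myh10, the heavy chain of nonmuscle myosin IIB, had peaks below 3 CPM in every library. At the Mbtps1 peak the levels were 0.458, 1.08 and 0.948 CPM without and 1.01, 1.45 and 2.38 CPM with Dex in WT cells, and 2.34, 1.98 and 2.65 without and 0.651, 0.258 and 1.21 CPM with Dex in cKO cells. The WT groups overlapped and the cKO groups did not, with 1.88-fold in WT and 0.30-fold in cKO, a difference of 2.65 ± 0.56 (edgeR adjusted p = 0.0485). The Myh10 peak read 1.22, 1.33 and 0.577 CPM in untreated WT, 1.39, 1.67 and 2.67 in Dex-treated WT, 2.34, 1.77 and 2.19 in untreated cKO and 0.488, 0.345 and 1.21 CPM in Dex-treated cKO libraries. Its WT groups nearly touched, its cKO Dex libraries were clearly lower than the cKO controls, and the difference was 2.57 ± 0.54 (edgeR adjusted p = 0.0485). The Mbtps1 call held only without WT Dex replicate 1 or cKO Dex replicate 3 (2.25 to 3.21) and the Myh10 call only without cKO Dex replicate 3 (2.23 to 3.21), and both were lost with total-count scaling (adjusted p = 0.0615 and 0.0620), without the filter on low counts (0.0656 and 0.0651) and in the non-robust fit (0.0567 at both).

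The 1 called peak with a value below 0 lay at chr2:18604170-18604756, 67972 bases from the start of Commd3, with no gene within 50 kb. It read 10.1, 10.5 and 11.8 (control) and 5.67, 6.03 and 6.58 CPM (Dex) for WT, and 8.64, 7.31 and 9.03 (control) and 12.6, 9.61 and 7.4 CPM (Dex) for cKO. All 3 WT Dex libraries were the lowest of the 12 (1.24% of tested peaks have this order), and the cKO Dex libraries spread across both controls. Dex lowered it to 0.562-fold in WT against 1.2-fold in cKO, a difference of -1.09 ± 0.23 (edgeR adjusted p = 0.0395). The call held without WT control replicate 1, cKO Dex replicate 2 or cKO Dex replicate 3 and was lost without any 1 of the other 9 libraries (-1.27 to -0.87), in limma-voom (adjusted p = 0.0610), without the filter on low counts (0.0613) and in the non-robust fit (0.0566).

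As a contrast, the interaction is equally the genotype difference in Dex cells minus that in control cells, and these peaks differed between the genotypes mainly under Dex. At the 55 peaks larger in WT, the cKO minus WT difference in Dex cells had a median of -1.04 and a range of -2.75 to -0.56 on the log2 scale. In control cells the median was 0.19, with a range of -0.26 to 1.42, and no peak of the 55 was called there (0.0104% of tested peaks were), while 50 of the 55 were called in Dex cells (0.17% of tested peaks). In control cells 16 of the 55 had an unadjusted p under 0.05 (7.69% of tested peaks), of which 15 were higher in cKO, as at the Sgk1 peak described above. These genotype contrasts share all their libraries with the interaction and are given as its components.

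Receptor target genes were examined as a list of 30 classical targets, of which 29 had a tested peak, 579 peaks in all. Called peaks larger in WT were found for 3 of the 29, Cxcr4, Klf9 and Sgk1, and larger in cKO for 0, or 0.518% of the peaks of the list against 0.0276% of all tested peaks. At an unadjusted p under 0.05 the list had 43 peaks larger in WT and 11 larger in cKO, together 9.33% of its peaks beside 5.65% of tested peaks, and its median difference was 0.06 beside 0.00. Most classical targets did not pass. The count gives each peak to 1 gene only, by the span that holds its centre or else the nearest span within 50 kb. A peak near a target but nearer to another span is therefore not counted for the target. The called peak given to Anapc16, chr10:59973570-59975404, had the start of Ddit4 as its nearest, 22717 bases away. Its difference was 0.83 ± 0.14 (edgeR adjusted p = 0.00276). Called peaks farther out, whose nearest spans were those of Zfp36l2 and Sgk1, are therefore not in it. The list was drawn up from general knowledge with results of these data known, so its counts are a description.

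Il7r, which encodes the survival receptor for interleukin 7, came nearest among the targets not called. Its peak 3979 bases outside the gene span, chr15:9533291-9534549, read 7.25, 6.41 and 6.06 CPM without and 17.8, 16.7 and 17.5 CPM with Dex in WT cells, and 5.28, 7.36 and 6.9 without and 8.7, 9.39 and 8.98 CPM with Dex in cKO cells. The WT Dex libraries were clear of the rest and the cKO Dex libraries above their controls, yet the difference of 0.94 ± 0.21 missed the threshold (edgeR adjusted p = 0.0892). It passed in DESeq2 (adjusted p = 0.0293), with total-count scaling (0.0195) and in 6 further settings. Txnip, whose product binds thioredoxin, was next with 1.09 ± 0.26 (edgeR adjusted p = 0.165).

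Tsc22d3, which encodes the anti-inflammatory protein GILZ, had its nearest approach to a call within the gene, at 2.59, 4.58 and 4.37 CPM in untreated WT, 7.25, 7.53 and 7.66 in Dex-treated WT, 4.92, 3.91 and 4.32 in untreated cKO and 4.43, 4.09 and 5.86 CPM in Dex-treated cKO libraries. Its WT Dex libraries were above the other 9, but the difference was 0.80 ± 0.27 with a 95% interval of 0.25 to 1.34 (edgeR adjusted p = 0.676). Sgk1 had a second, stronger peak 703 bases outside the gene, raised 2.47-fold in WT with a ratio of 1.43 in cKO, and with a difference of 0.80 ± 0.24 (edgeR adjusted p = 0.547). The phosphatase gene Dusp1 had 0.43 ± 0.18 (adjusted p = 0.816), Zbtb16, the transcription factor PLZF, 1.36 ± 0.36 (0.317), and the decoy interleukin 1 receptor gene Il1r2 0.34 ± 0.16 (0.856). Zfp36l2 had 0.45 ± 0.15 (edgeR adjusted p = 0.65) at its nearest peak. The 95% intervals ran from 0.03 to 0.65 at Il1r2 to 0.64 to 2.08 at Zbtb16, so the missed threshold does not show that the genotypes responded alike. Each peak was picked from those of its gene for the smallest p, of the interaction or of Dex in WT. That choice favours intervals away from 0, so they are no evidence of a difference either.

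Fkbp5, the receptor's co-chaperone and a standard target, and Per1, a clock gene with receptor sites in its promoter, had no called Dex effect in WT at any tested peak. The values below are for the peak of each gene with the smallest interaction p. The Fkbp5 peak was below 1 CPM in every library, with a difference of 1.46 ± 0.86 (edgeR adjusted p = 0.918). The Per1 peak read 4.12, 3.01 and 3.79 (control) and 4.03, 3.35 and 3.18 CPM (Dex) for WT, and 2.28, 3.08 and 2.58 (control) and 3.42, 3.79 and 4.07 CPM (Dex) for cKO, in which the cKO controls overlapped only the WT controls and the other 3 groups overlapped one another, with -0.54 ± 0.31 (edgeR adjusted p = 0.917).

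Among 19 Th17 core genes with 683 tested peaks, called peaks larger in WT were found for 2, Hif1a and Tmem176b, or 0.293% of these peaks beside 0.0276% of all tested. This list too was drawn up with results of these data known, so its counts are a description. Hif1a encodes the oxygen-sensing factor that drives glycolysis in Th17 cells. Its called peak, chr12:73889184-73890618, lay 17966 bases upstream of the start and read 9.31, 6.41 and 7.92 CPM without and 19.2, 14.7 and 15.7 CPM with Dex in WT cells, and 8.82, 9.39 and 9.29 without and 9.68, 9.09 and 9.82 CPM with Dex in cKO cells. The cKO groups overlapped and the WT Dex libraries were above all others. The difference was 1.03 ± 0.21 (edgeR adjusted p = 0.0241), and the call held only without WT control replicate 1, WT Dex replicate 2, WT Dex replicate 3 or cKO Dex replicate 3 (0.90 to 1.15 over the 12). The Hif1a promoter peak had 0.08 ± 0.13 (edgeR adjusted p = 0.988).

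Tmem176b encodes a membrane channel protein abundant in cells that express the Th17 factor RORgt. The called peak nearest its span, 30204 bases away and 18.6 kb from the called Gimap3 peak, read 5.87, 6.7 and 9.2 CPM in untreated WT, 24.5, 19.2 and 20.4 in Dex-treated WT, 6.42, 8.09 and 7.1 in untreated cKO and 9.48, 9.69 and 9.19 CPM in Dex-treated cKO libraries. Each Dex group was above its control without overlap. The difference was 1.14 ± 0.21 (edgeR adjusted p = 0.0078), lost without WT control replicate 2, WT Dex replicate 1 or cKO control replicate 2. The transcript start nearest to this peak was that of Gimap3, 32756 bases away. The Tmem176b promoter peak had -0.10 ± 0.20 (edgeR adjusted p = 0.991). The Th17 core list as a whole had no lean to WT: 18 peaks reached an unadjusted p under 0.05 larger in WT and 24 larger in cKO, together 6.15% beside 5.65% of tested peaks, and its median was -0.03. Il23r, the receptor subunit for interleukin 23, went below 0 at a peak within the gene, 9.46, 9.36 and 10.3 (control) and 5.93, 5.97 and 5.67 CPM (Dex) for WT, and 9.18, 9.92 and 9.29 (control) and 11.7, 10.6 and 8.66 CPM (Dex) for cKO. Only the WT Dex libraries were low there, with -0.86 ± 0.21 (edgeR adjusted p = 0.194), which passed only with the mean filter of 2 CPM (0.0256), with the share held by the strongest peaks as a covariate (0.0285), and without cKO Dex replicate 3 (0.0295). The signature cytokine genes Il17a (-0.54 ± 0.30, edgeR adjusted p = 0.902) and Il17f (2.3 ± 0.83, 0.709) were not called, at the peak of each with the smallest interaction p. The strongest Il17f peak had means of 52.4 CPM in untreated WT, 52.9 in Dex-treated WT, 50.9 in untreated cKO and 51.9 in Dex-treated cKO. For the strongest Il17a peak the means were 71.2, 74.4, 66.2 and 67.9 CPM in the same order.

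Of 18 NF-kB and inflammatory genes with 241 tested peaks, 1 had a called peak, or 0.415% of these peaks beside 0.0276% of all tested. That share rests on 1 peak of a list chosen with results of these data known, and is a description. Nfkbiz encodes the nuclear IkB protein that supports Th17 transcription. Its peak 1176 bases outside the span, chr16:55809379-55811019, read 4.27, 4.44 and 3.63 CPM without and 7.56, 9.54 and 9.19 CPM with Dex in WT cells, and 6.0, 4.65 and 4.52 without and 4.31, 4.74 and 3.33 CPM with Dex in cKO cells. The WT Dex libraries were the highest and the cKO groups overlapped, with a difference of 1.38 ± 0.26 (edgeR adjusted p = 0.00964) that was lost without WT control replicate 3, WT Dex replicate 2 or cKO control replicate 1. A stronger called peak 227 kb from it, chr16:55582485-55583439, with Nfkbiz as its nearest gene span, read 6.94, 8.18 and 9.48 CPM in untreated WT, 28.5, 30.4 and 26.4 in Dex-treated WT, 11.3, 8.61 and 11 in untreated cKO and 12.5, 14.6 and 10.1 CPM in Dex-treated cKO libraries. Its WT Dex libraries were all above 26 CPM and all others below 15, a difference of 1.50 ± 0.20 (edgeR adjusted p = 1.47e-05).

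Of 15 apoptosis genes with 403 tested peaks, 2 had called peaks larger in WT, Cradd and Bcl2l11 (0.496% of the list's peaks beside 0.0276% of all tested). Its members were chosen with results of these data known, so the share is a description. The list had 20 peaks with an unadjusted p under 0.05 larger in WT and 11 larger in cKO, together 7.69% beside 5.65%. Bcl2l11 encodes BIM, the BH3-only protein of glucocorticoid-induced T cell death. The peak within it read 7.7, 9.61 and 8.37 (control) and 21.4, 17.2 and 22.2 CPM (Dex) for WT, and 9.12, 9.29 and 9.55 (control) and 8.91, 13.4 and 11.1 CPM (Dex) for cKO. The cKO Dex libraries ranged from below to above the cKO controls, and the difference was 0.98 ± 0.20 (edgeR adjusted p = 0.0396). The call held only without WT control replicate 2, WT Dex replicate 2, cKO Dex replicate 2 or cKO Dex replicate 3 (0.83 to 1.14 over the 12), and was lost without the filter on low counts (0.0651) and in the non-robust fit (0.0566). Bcl2, which opposes cell death, had 0.42 ± 0.13 at a strong peak within the gene (edgeR adjusted p = 0.611). This peak was picked for the smallest p of Dex in WT, which favours values away from 0.

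No peak was called in the lists of non-pathogenic Th17 (13 genes), pathogenic Th17 (19), activation and AP-1 (21), naive and memory T cell (14), co-inhibitory receptor (13), circadian clock (15), receptor, chaperone and steroid metabolism (19 of 20 with a peak) and other helper fate genes (13). Each held 202 to 907 tested peaks. As 0.0276% of all tested peaks were called, a count of 0 is the background and no result about these genes. The receptor, chaperone and steroid metabolism list had 1 peak larger in WT and 12 larger in cKO at an unadjusted p under 0.05, together 4.85% of its 268 peaks beside 5.65% of tested peaks, and a median of -0.08. In these lists the smallest adjusted p was at Npas2, a clock transcription factor gene, with 1.09 ± 0.24 (edgeR adjusted p = 0.0741), followed by Il7r and Il23r, both described above. Prdm1, the transcription factor BLIMP-1, had 1.67 ± 0.42 (0.24), S1pr1, the receptor for lymphocyte egress, 0.79 ± 0.20 (0.278), and Foxp1, a factor of T cell quiescence, 0.59 ± 0.16 (0.4). Bhlhe40, a transcription factor that represses Il10, had an estimate below 0 at -0.73 ± 0.20 (0.414). Cd5l, a lipid regulator of Th17 pathogenicity, had 1.13 ± 0.33 (0.497), and Il10, the anti-inflammatory cytokine gene, 0.53 ± 0.17 (0.65). From Prdm1 to Il10, each value is that of the peak of the gene with the smallest p of Dex in WT. That choice uses the same WT libraries as the interaction and favours values away from 0. The lists of T cell identity, ubiquitous promoter, erythroid and stromal, myeloid, CD8 T and NK cell and B cell genes had 0 called peaks as well. With 51 to 253 tested peaks each, this too is the background.

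No called peak overlapped a promoter window, taken as 250 bases before to 50 after a transcript start (5.39% of tested peaks did). The nearest to a transcript start was 3320 bases away, at Gramd4, and 83.6% of those with a known start lay more than 10 kb from a start against 71.4% of tested peaks. They lay within a gene in 26 cases (46.4% against 58.3%), between genes in 21, and with no gene within 50 kb in 9 (16.1% against 10.3%). They were wide and strong, with a median width of 1027.5 bases against 378 and a median of 12.3 against 1.25 CPM, and 3 of the 56 were narrower than 500 bases (5.36% against 64.7%). The strong peaks have the smaller SE given above, so these features move with precision, and their part in the calls was not tested.

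At the promoters of the called genes, 35 genes had a tested promoter peak, 40 distinct peaks in all, and 0 was called for the interaction, which at 0.0276% of tested peaks is the background. Over all 10918 tested promoter peaks, 2.42% had an unadjusted p under 0.05, beside 5.65% of tested peaks. At the 40 promoter peaks of the called genes, the differences ran from -0.60 to 1.01 with a median of 0.01. The smallest adjusted p among these 40 was 0.366, at Gimap3 (0.50 ± 0.14 in edgeR). Gimap3's promoter read 42.9 ± 2.38 CPM in untreated WT, 70.3 ± 2.0 in Dex-treated WT, 44.8 ± 1.27 in untreated cKO and 51.7 ± 1.61 CPM in Dex-treated cKO libraries (mean ± SD, n = 3).

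Of 722 peaks within 25 kb that were not called, 65.9% had a difference above 0 beside 50.4% over every tested peak, and their median was 0.16. At an unadjusted p under 0.05, 75 of the 722 were larger in WT and 7 larger in cKO. Over all tested peaks, 2.91% were larger in WT and 2.74% larger in cKO at that threshold. Some called peaks lay together. The peak near Mkln1 described above had a second called peak 18.5 kb from it, chr6:31363808-31364327, with a difference of 1.64 ± 0.34 (edgeR adjusted p = 0.042, called in 3 of the 12 leave-outs). Gm30990, upstream of the translation inhibitor gene Pdcd4, held 2 called peaks 1.71 kb apart. The stronger of the 2, chr19:53899192-53900859, read 28.3, 28.8 and 30.2 CPM in untreated WT, 68.4, 66.5 and 58.7 in Dex-treated WT, 28.9, 31.4 and 32.5 in untreated cKO and 34.6, 39.3 and 35.3 CPM in Dex-treated cKO libraries, a difference of 0.91 ± 0.15 (edgeR adjusted p = 0.000528). The weaker, chr19:53897746-53898888, had 2.67, 3.79 and 2.8 (control) and 8.32, 9.26 and 6.07 CPM (Dex) for WT, and 4.62, 5.32 and 3.81 (control) and 4.39, 4.18 and 5.28 CPM (Dex) for cKO, so that the cKO Dex libraries lay above their controls at the first and not at its neighbour, whose difference was 1.34 ± 0.28 (edgeR adjusted p = 0.0386, called in 4 of the 12 leave-outs).

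On chromosome 10, 2 called peaks had no gene within 50 kb. The peak at chr10:21676448-21677419, 205251 bases upstream of Sgk1, read 4.65, 7.19 and 5.98 CPM without and 24, 23.3 and 19.3 CPM with Dex in WT cells, and 10.4, 8.66 and 7.36 without and 14.2, 13.9 and 12.3 CPM with Dex in cKO cells. The cKO controls were all above the WT controls, neither Dex group overlapped its control, and the difference was 1.27 ± 0.21 (edgeR adjusted p = 0.000816). The peak at chr10:19184688-19185355, 169611 bases upstream of Tnfaip3, the NF-kB inhibitor A20, read 13.6, 17 and 21.4 CPM in untreated WT, 38.1, 42.1 and 34.9 in Dex-treated WT, 16.4, 19.3 and 19.7 in untreated cKO and 20.9, 23.1 and 21.9 CPM in Dex-treated cKO libraries. Its difference was 0.88 ± 0.17 (edgeR adjusted p = 0.0188), called in 5 of the 12 leave-outs.

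**Figure D5:**
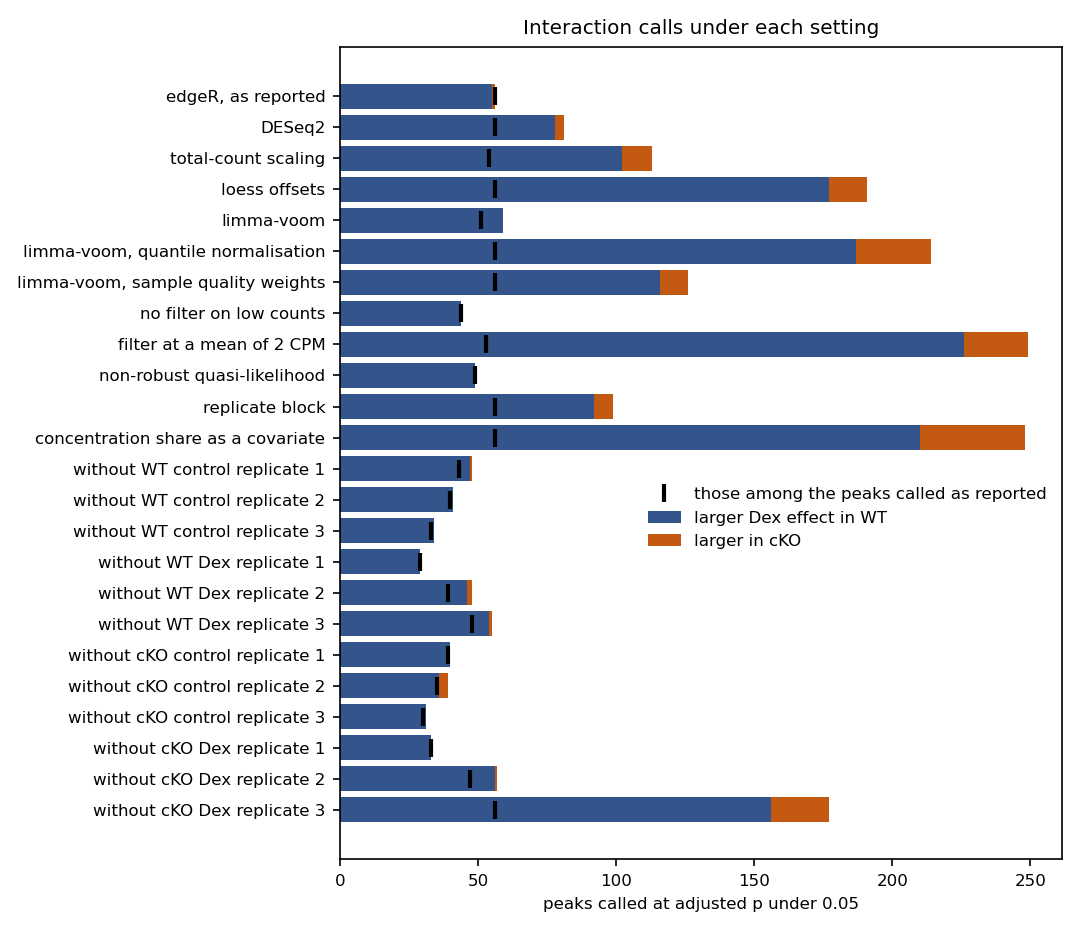
Number of peaks called at an adjusted p under 0.05 (x axis) in each setting (y axis), split into larger in WT (blue) and larger in cKO (orange), with a black mark at the number that are among the 56 reported. Counts run from 29 without WT Dex replicate 1 to 249 with a filter at a mean of 2 CPM, and most of the 56 are found in the other analyses that keep all libraries.

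Both the number and the set of called peaks moved with the setting. Without the third cKO Dex library, the one that stood apart, 177 peaks were called, 156 larger in WT and 21 larger in cKO, and all 56 were among them (31.6% of the 177). With the share held by the strongest 10% of peaks in each library as a covariate, 248 were called, 210 and 38, again with all 56 (22.6% of the 248). Without WT Dex replicate 1 the count was 29, all of them among the 56 (51.8% of the 56). In all 12 leave-outs the 55 peaks kept a difference above 0, and 24 of the 56 were called in every one and 25 were lost without 4 or more libraries. The 24 included those at nonagouti, Cxcr4, Klf9, Cab39l, Cradd and Cx3cr1.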

How the data were processed

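ATAC-seq of 12 libraries in 4 groups of 3 (6000 sorted cells and 16 PCR cycles each, per the labels' protocols) was analysed from raw whole-number counts per peak that the authors deposited for a joint set of 222105 peaks, without normalisation per the file headers. The submitters' processing notes name Bowtie2 2.3.5, featureCounts 2.1.1, Genrich 0.6.1, Trimmomatic 0.39, SAMtools 1.3, Picard 2.18.27, deepTools 3.5.6 and mm10. The sources used here do not give filters, the transposase shift, the unit counted (reads or fragments) or whether libraries were pooled for peak calling, and a joint peak set can favour sites open in any one group. Without molecular identifiers, PCR copies cannot be told from separate molecules.

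Peaks were filtered with filterByExpr of edgeR 4.0.16 in R 4.3.3 (minimum count 10, total 15), which kept 202587, and scaled by TMM. The model, edgeR's robust quasi-likelihood F-test, had a coefficient for each of the 4 groups and used every library (8 residual degrees of freedom, median biological coefficient of variation 25%), two-sided, with Benjamini-Hochberg adjustment over all tested peaks. CPM are counts per 1000000 of the TMM-scaled library size, and an SE is the log2 value divided by the square root of F. Group sizes of 3 leave outliers within a group untested. Alternatives were DESeq2 1.42.0, limma 3.58.1 (voom), other scalings and filters, a replicate block, leaving out each library, and, chosen after seeing the data, the share of counts in the strongest 10% of peaks (the concentration share) as a covariate. The steps were tested on simulated data. Replicates differed beyond sampling noise (2.0 to 3.59 chi-square units per degree of freedom), so none was counted as a duplicate.

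A peak took the protein-coding gene of GRCm38.p6 (the mm10 build) whose span holds its centre, or the nearest span within 50 kb; it need not regulate that gene. Named peaks were the 20 called with the smallest p, the 5 with the largest difference at 2 CPM or more in a group, every called peak of a list gene or with a value below 0, and, for receptor target and Th17 core genes, the peak with the smallest p. Peaks named outside this rule were chosen after their values were seen: Kbtbd11, the second Mkln1 and Gm30990 peaks, the peak upstream of Tnfaip3, promoter peaks, and list genes called for Dex in WT. The gene lists, 18 with 268 genes, came from general knowledge, and members and lists were chosen with earlier results of these data known.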

Additional observations from a re-analysis of the deposited data

Results flagged for a closer look

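The interaction is itself a test of whether 1 effect differs between the genotypes, so each called difference named by the rule stands here with its value, the Dex effect in WT minus that in cKO on the log2 scale, past an adjusted p of 0.05 in edgeR. In all 56 peaks passed. Among the 20 with the smallest p, the values were 2.31 at nonagouti, 1.81 at chr6:31345099-31346034, 1.50 at chr16:55582485-55583439, 3.49 at Cab39l, 1.27 at Ppp1r21, 1.17 at Cxcr4, 1.95 at Cradd, 1.17 at Mchr1, 1.13 at Ift80 and 0.96 at Klf9. The other 10 of these were 1.24 at Gimap3, 1.56 at Ube2s, 2.31 at chr19:23056894-23057202, 0.92 at chr17:84115758-84117588, 0.86 at Fam193a, 0.91 at Gm30990, 1.05 at Gramd4, 1.71 at Cx3cr1, 1.27 at chr10:21676448-21677419 and 1.20 at Xxylt1. By size or by membership of a gene list, the values were 2.78 at Nme7, 2.39 at Xbp1, 1.14 at Tmem176b, 1.38 at Nfkbiz, 1.03 at Hif1a, 2.15 at Sgk1, 0.98 at Bcl2l11, 2.65 at Mbtps1 and 2.57 at Myh10. The value below 0 was -1.09 at chr2:18604170-18604756. Groups held 3 libraries, so a library far from the others was not tested for.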

How the results depend on the processing

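The count of 56 called peaks (55 larger in WT, 1 larger in cKO) was 81 in DESeq2 (78 and 3), 113 with total-count scaling (102 and 11), 191 with loess offsets (177 and 14), 59 in limma-voom (59 and 0), 126 in limma-voom with sample quality weights (116 and 10), 214 in limma-voom with quantile normalisation (187 and 27), 44 without a filter (44 and 0), 249 of 75809 peaks with a mean of at least 2 CPM (226 and 23), 49 in the non-robust fit (49 and 0) and 248 with the concentration share as a covariate, added after seeing the data (210 and 38). At an adjusted p under 0.01 it was 32 (32 and 0), under 0.1 it was 77 (75 and 2), and beyond 1.5-fold 6 (6 and 0). The filter at 2 CPM tested fewer peaks and was refitted on them. Why the counts differed between the settings was not tested for any of them. Of the 56, all were found with DESeq2, loess offsets, quantile normalisation, quality weights and the covariate, 54 with total counts, 53 with the 2 CPM filter, 51 in limma-voom, 49 in the non-robust fit and 44 without a filter; 43 peaks were called in all 11 such settings. These shared peaks made up 21.3 to 100% of each setting's own calls. The sign was the same in every setting that tested the peak, 11 for 53 peaks and 10 for Sgk1, Mbtps1 and Myh10, which the 2 CPM filter removed.

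Leaving out 1 library gave 29 (without WT Dex replicate 1) to 177 calls (without cKO Dex replicate 3), 29 to 156 larger in WT and 0 to 21 larger in cKO. The count was 34 without WT control replicate 3, 31 without cKO control replicate 3 and 33 without cKO Dex replicate 1. Of the 56 peaks, 24 were called in all 12, 7 were lost without 1 to 3 libraries and 25 without 4 or more. Among named peaks that were not called, Tmem176a (0.09) ran from -0.015 (without cKO Dex replicate 1) to 0.18, and Zfp36 (0.04) from -0.047 (without cKO control replicate 2) to 0.11, below 0 also without WT control replicate 1, WT Dex replicate 2 or cKO Dex replicate 3.

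Whether replicate numbers pair the libraries was not settled. Deviations of 18 same-numbered pairs correlated from -0.19 to 0.26, 3 of them over 0.1, and the highest value among the other pairs was 0.25. With the replicate block 99 peaks were called (92 and 7), all 56 among them. Precision was lowest at weak peaks, with a median SE of 0.70 below 2 CPM; the parts of depth and replicate spread in it were not tested.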
